A study of Mus musculus with 9 samples.

Results

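Regulatory B cells restrain other immune cells through secreted cytokines and through ligands on their surface. The 10 genes described here encode such molecules. They are Il10 and the chains of its receptor (Il10ra, Il10rb), the cytokine subunits Ebi3 and Il12a, Tgfb1, the checkpoint ligands Cd274 and Pdcd1lg2, and the surface molecules Havcr1 and Cd1d1. They were chosen by gene symbol from a table of 55322 genes, not by a cut on their level. Earlier results of these data, that for Il10 among them, were known when they were chosen. All 10 were measured in every library and passed the filter on low values in all 3 comparisons.

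CD11b+ and CD11b- B cells were sorted from the BM of wild-type C57BL/6 mice 48 h after intraperitoneal LPS (5 mg/kg), a component of bacterial cell walls, so both B cell groups had received LPS. BM cells bearing CD3, CD4, CD8, Gr-1, NK1.1 or TER119 had been depleted before sorting. Peritoneal macrophages (PMs), CD11b+F4/80+ cells of untreated wild-type mice, formed the third group, and each group had 3 libraries. No B cells of untreated mice were analysed here. Cell type, tissue and treatment therefore cannot be told apart between B cells and PMs. The labels do not say whether libraries of a group came from separate or pooled mice, so the p-values measure only the spread between these libraries.

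IL-10 is an anti-inflammatory cytokine that binds a receptor made of IL-10Rα, the chain that binds it, and IL-10Rβ, a chain shared with related cytokines. The receptor signals through JAK1 and TYK2 to STAT3. EBI3 pairs with the Il12a product to form IL-35, and with the Il27 product to form IL-27, while the Il12a product forms IL-12 with that of Il12b. PD-L1 (Cd274) and PD-L2 (Pdcd1lg2) engage the inhibitory receptor PD-1 on T cells, TIM-1 (Havcr1) binds phosphatidylserine and is carried by many IL-10-producing B cells, and CD1d presents lipids to NKT cells.

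Levels are given as FPKM, the reads of a gene scaled to the length of its exons and to all reads on genes in the library, as the authors calculated them. Between 18014658 and 35251215 reads lay on genes in each library. The summed FPKM of 9 B cell markers was 5345 to 6080 in CD11b+ B cells, 6936 to 7245 in CD11b- B cells and 63.9 to 117 in PMs, and that of 14 monocyte and macrophage markers was 25945 to 63347 in PMs. Itgam, which encodes CD11b, had an FPKM of 1.58 ± 0.311 (SD, n = 3) in CD11b+ and 0.507 ± 0.323 in CD11b- B cells without overlap, but was not called between them (adjusted p = 0.500 by limma). In PMs it was 288 ± 60.6.

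CD11b+ and CD11b- B cells were compared to ask which of the 10 genes set the cells that had gained CD11b apart from the other B cells of the same LPS-treated BM. Il10, Pdcd1lg2 and Havcr1 were higher in all 3 CD11b+ libraries than in any CD11b- library, Ebi3 had about a 2-fold higher mean with overlapping libraries, and Il12a was lower without overlap. By limma, none of these differences was called after adjustment over all 21778 genes tested. The receptor chains, Tgfb1, Cd274 and Cd1d1 overlapped between the groups. Against PMs, 7 of the 10 were called higher by limma in CD11b+ B cells, where 21.5% of all genes tested were called higher, and 5 higher in CD11b- B cells, where 25.8% were. Il10rb was called lower in both, against 8.78% and 11% of all genes. EdgeR called 4 of the 10 genes higher for CD11b+ B cells, against 18.7% of its genes, and 3 of the 8 it tested for CD11b- B cells, against 21.1%.

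**Figure D1:**
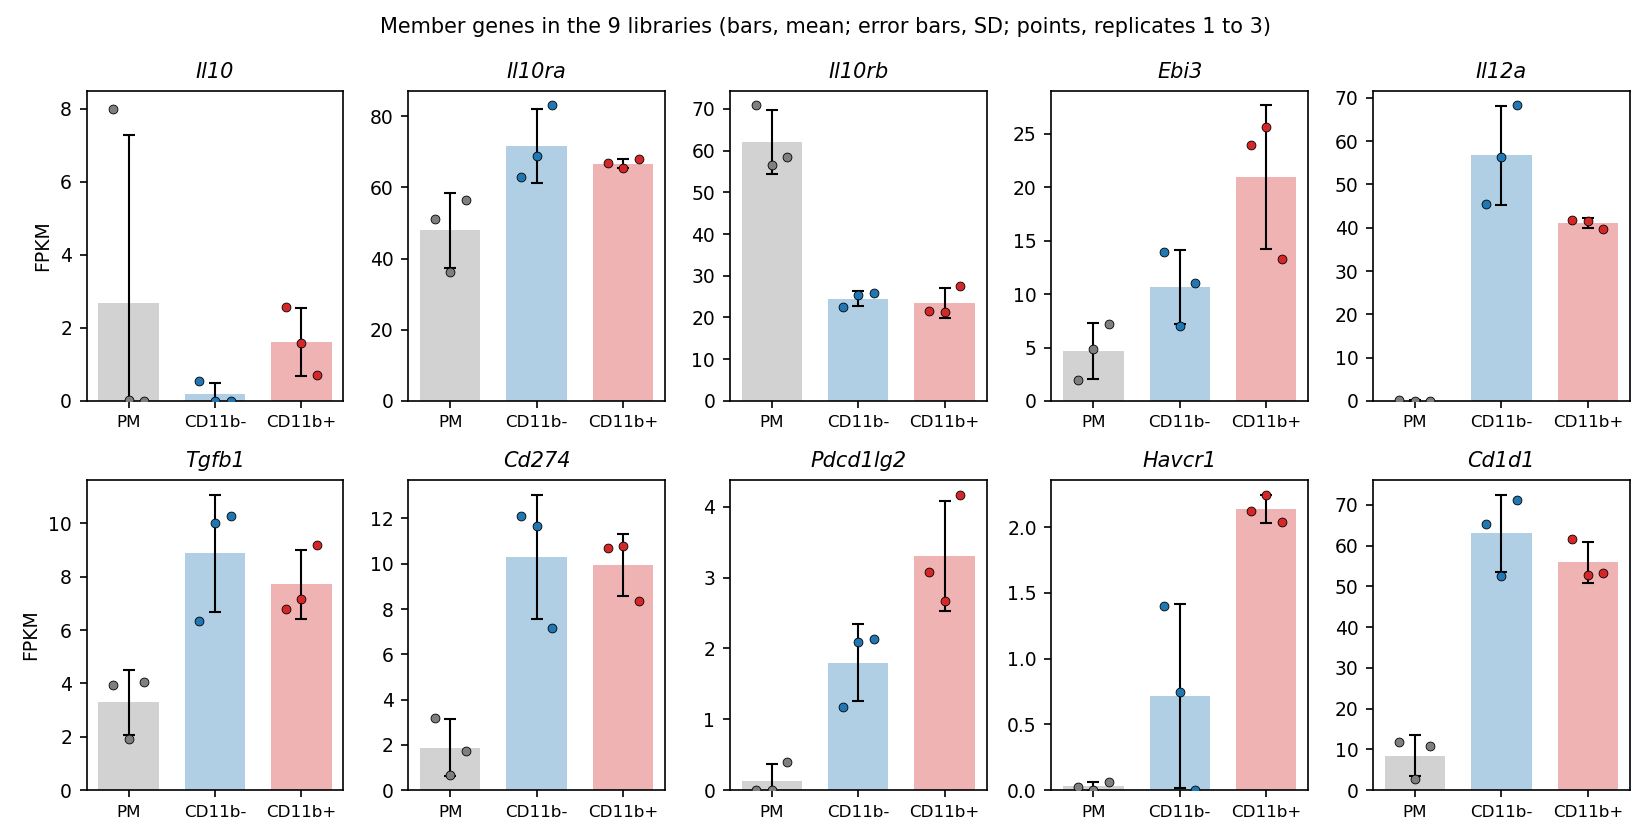
FPKM (linear axes from 0) of the 10 genes in PMs (grey), CD11b- B cells (blue) and CD11b+ B cells (red), with bars for the mean of 3 libraries, error bars for the SD and points for replicates 1 to 3. Il12a sits between 39.8 and 68.3 in the B cell libraries and at 0.0979 or less in PMs, whereas 1 PM library carries the highest Il10 value, 8.01.

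Both B cell groups ranked the 10 genes in the same order of mean FPKM. In CD11b+ B cells the order ran from Il10ra (66.7) over Cd1d1 (55.9), Il12a (41.0), Il10rb (23.4), Ebi3 (20.95), Cd274 (9.94), Tgfb1 (7.71), Pdcd1lg2 (3.30) and Havcr1 (2.14) to Il10 (1.62). The neighbours Il10rb and Ebi3, Cd274 and Tgfb1, and Havcr1 and Il10 overlapped in this group, and the other neighbours did not. In CD11b- B cells the only neighbours whose libraries did not overlap were Il12a and Il10rb, Il10rb and Ebi3, and Tgfb1 and Pdcd1lg2. Il10 had the lowest mean of the 10 genes in both groups. Its mean was at or above that of 68.5% of the 34551 genes detected in CD11b+ B cells, and of 43.2% of the 28671 genes detected in CD11b- B cells. In PMs the receptor chains came first, Il10rb (62.0) before Il10ra (48.0), and Il12a (0.0752) and Havcr1 (0.0294) came last.

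By limma, none of the 10 genes was called in CD11b+ against CD11b- B cells, where 0.0689% of all genes tested were called, all of them higher. EdgeR and DESeq2 on the underlying reads called none of the 10 either, where edgeR called 0.269% of its genes, all higher, and DESeq2 called 1.89% higher and 0.369% lower. At an unadjusted p under 0.05, 4 of the 10 genes were higher, against 4.65% of all genes tested, and Il12a was lower, against 3.04%. The groups did not overlap for 3 genes in the higher direction, against 8.63% of all genes, and for 1 gene in the lower direction, against 6.32%. Il10, already reported as higher by the study, is counted among both the 4 and the 3 higher genes. The median difference of the 10 genes was -0.05 in log2(FPKM + 1), beside 0.03 over all genes tested.

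Il10 (ENSMUSG00000016529) lies at chr1:131019845-131024974 (GRCm38, plus strand). In CD11b+ B cells its FPKM was 2.57, 1.57 and 0.715 in replicates 1, 2 and 3, from 99, 54 and 33 reads. In CD11b- B cells it was 0.549, 0 and 0, and all 24 reads came from replicate 1. All CD11b+ libraries thus lay above all CD11b- libraries, though CD11b+ replicate 3 was close to CD11b- replicate 1. The ratio of the means was 8.86, and the difference in log2(FPKM + 1) was 1.12 ± 0.32 (SE), which adjustment over all genes left at 0.460 by limma. The size of this difference depends on the scale, with 3.04 and 5.23 for pseudocounts of 0.1 and 0.01, 3.10 by edgeR and 3.12 by DESeq2, none of them called. Il10 had been singled out as higher in CD11b+ B cells by the study from RNA sequencing of these cells, so its direction here is not independent evidence. The study also reports Il10 as higher there in a repeat of the sequencing, by quantitative PCR and in Il10-Venus reporter mice. It further reports IL-10 secretion by these cells in culture. Those other data were not analysed here. With bulk RNA, more cells that express a gene and more RNA per cell cannot be told apart.

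In PMs Il10 was carried by 1 library. Replicate 1 had an FPKM of 8.01 from 189 reads, replicate 2 had 0.0261 from 1 read, and replicate 3 had none. Il10 was called in neither comparison with PMs, with a difference of 0.26 (adjusted p = 0.818 by limma) for CD11b+ and -0.86 (adjusted p = 0.416 by limma) for CD11b- B cells. The first of these is positive although the PM mean (2.68) is above that of CD11b+ B cells (1.62), and edgeR and DESeq2 gave -1.07 and -1.08. Without PM replicate 1, Il10 was called higher in CD11b+ B cells (1.31, adjusted p = 0.0296 by limma), and for CD11b- B cells the difference turned to 0.19 (adjusted p = 0.507 by limma). That PM library also had the highest summed B cell markers of its group, 117 against 63.9 and 74.6, and the lowest monocyte and macrophage markers, 25945 against 52531 and 63347. Their part in the Il10 value was not tested.

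Markers of other cell types were also compared between the B cell groups. The summed FPKM of 14 monocyte and macrophage markers was 345, 319 and 160 in CD11b+ replicates 1, 2 and 3, and 57.1 to 66.9 in CD11b- B cells, with 12 markers higher without overlap. Of these 14 markers limma called 0 higher, edgeR 2 of the 13 it tested and DESeq2 11. Neutrophil markers (15 genes) summed to 666, 1595 and 219 against 2.06 to 3.30, with 13 higher without overlap, and limma called 3 of them higher, edgeR 9 of 14 and DESeq2 14 of 15. Plasma cell markers (7 genes) summed to 288, 252 and 641 against 101 to 179, with 3 higher without overlap. Limma and edgeR called 0 of the 7 and DESeq2 called Jchain and Mzb1, and Jchain, the joining chain of secreted antibody, was 101, 83.9 and 449 against 6.18, 17.4 and 22.7. No marker of these 3 lists was at 0 in all CD11b+ libraries. The CD11b+ library with the most Il10 had the highest monocyte and macrophage sum and the one with the least had the lowest. Lyz2 alone held 261, 240 and 65.4 of the sums of 345, 319 and 160, so that order rests on 1 gene. Other markers of the list did not all share it, as Ly6c2 was 28.6, 26.4 and 46.1. The plasma cell sum was highest where Il10 was lowest. The part of these cell types in the differences of Il10, Ebi3, Pdcd1lg2 and Havcr1 was not tested.

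**Figure D2:**
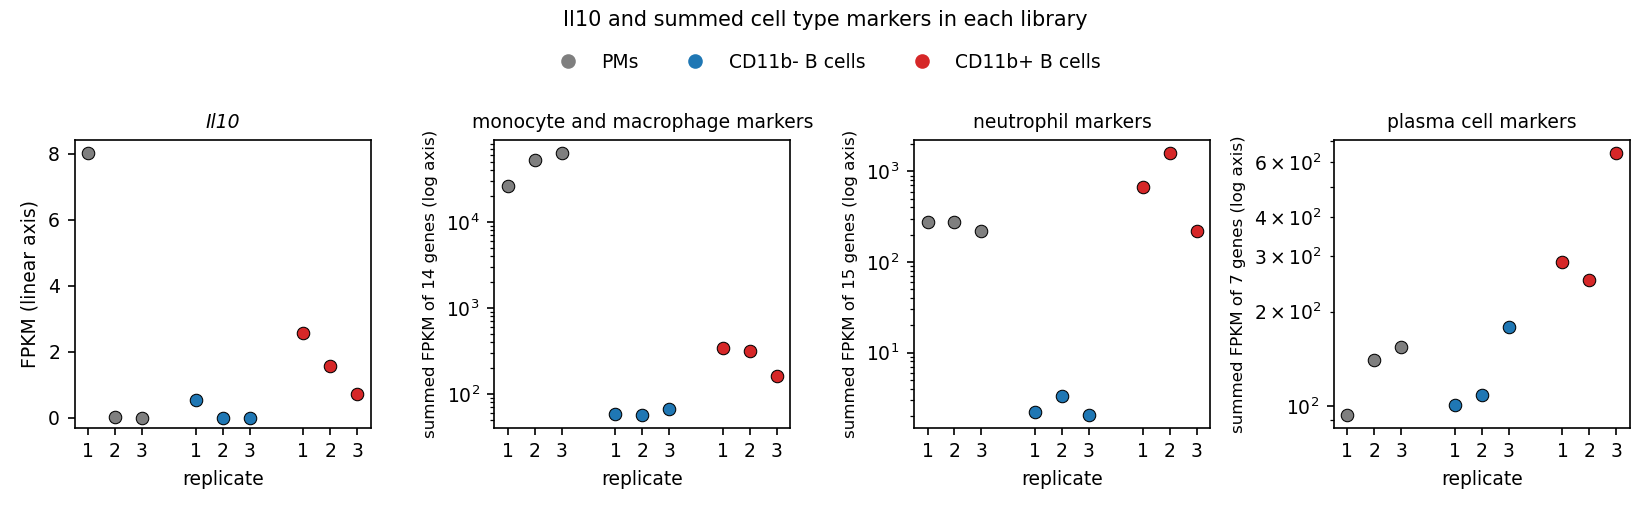
Il10 FPKM (left, linear axis) and the summed FPKM of monocyte and macrophage, neutrophil and plasma cell markers (log axes) in replicates 1 to 3 of PMs (grey), CD11b- (blue) and CD11b+ (red) B cells. Each of the 3 marker sums is higher in every CD11b+ library than in every CD11b- library, and the 2 PM libraries with the higher macrophage sums carry at most 1 Il10 read.

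Other lists of markers were checked in the same way. T cell markers (8 genes) summed to 0.747 to 2.22 in CD11b+ and 0.0707 to 0.302 in CD11b- B cells, where Cd4, Cd8a, Cd8b1 and Foxp3 were at 0. Basophil and mast cell markers (6 genes) summed to 1.66 to 2.90 against 0.0206 to 0.149, and plasmacytoid dendritic cell markers (4 genes) to 2.85 to 4.53 against 0.924 to 1.80. Peritoneal macrophage, NK cell and conventional dendritic cell markers overlapped between the B cell groups, at 60.6 to 84.0, 0.752 to 5.04 and 0.765 to 2.64. In these 6 lists limma and edgeR called 0 genes, and DESeq2 called Cd4, Cd28, Nkg7 and Klk1 higher in CD11b+ B cells.

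Among 12239 other genes whose mean FPKM reached 1, the distribution over the 9 libraries most like that of Il10 was found for U6, a small nuclear RNA, with an overlap of 0.867, for the processed pseudogene Gm13450 (0.861) and for Mir6994 (0.850). The overlap is the sum over libraries of the smaller of the shares that 2 genes have there, and 1 means identical profiles. Like Il10, all 3 genes were highest in PM replicate 1 (13.8, 5.65 and 6.84), and they were at 0 in PM replicates 2 and 3. The likeness to Il10 thus leans on that 1 library.

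The receptor for IL-10 was present in every library. Il10ra (ENSMUSG00000032089, chr9:45253837-45269149, minus strand) had an FPKM of 66.8, 65.4 and 68.0 in CD11b+ and 63.0, 68.9 and 83.1 in CD11b- B cells, against 51.2, 36.2 and 56.5 in PMs. The B cell libraries overlapped with each other and lay above all PM libraries. The difference between the B cell groups was -0.09 (95% confidence interval -0.41 to 0.23). Against PMs it was 0.49 for CD11b+ (adjusted p = 0.112 by limma) and 0.58 for CD11b- B cells (adjusted p = 0.0654 by limma), neither of them called. The latter passed when only genes with a mean of 1 or more were tested (adjusted p = 0.0486) and in 1 fit over all 9 libraries (adjusted p = 0.0347). On the underlying reads edgeR put these at -0.01 and 0.07.

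Il10rb (ENSMUSG00000022969, chr16:91406164-91425834, plus strand) encodes the shared chain and showed the opposite order. Its FPKM was 70.9, 56.7 and 58.5 in PMs, 22.4, 25.3 and 25.8 in CD11b- B cells and 21.5, 21.3 and 27.5 in CD11b+ B cells. Every PM library lay above every B cell library, and the B cell groups overlapped. PMs had 2.65 times the mean of CD11b+ B cells (difference -1.37 ± 0.19, adjusted p = 0.00125 by limma) and 2.53 times that of CD11b- B cells (-1.30 ± 0.16, adjusted p = 0.000695 by limma). Within a library, the ratio of Il10ra to Il10rb was 2.47 to 3.22 in the 6 B cell libraries and 0.639 to 0.967 in the 3 PM libraries. Il10rb shares 569 exonic bases with Gm21970, which was listed at 0 in every library.

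Il12a and Ebi3, the subunits that together form IL-35, were both present in B cells. Il12a (ENSMUSG00000027776, chr3:68690644-68698547, plus strand) had an FPKM of 41.8, 41.6 and 39.8 in CD11b+ and 45.4, 56.3 and 68.3 in CD11b- B cells. In PMs it was 0.0979, 0.0403 and 0.0874, from 8 reads in all. The CD11b+ libraries varied little (SD 1.10) and lay just below the CD11b- libraries, whose SD was 11.4. CD11b+ B cells had 72.4% of the mean of CD11b- B cells, a difference of -0.44 ± 0.16 that adjustment left at 0.618 by limma. Against PMs the mean was 546-fold higher in CD11b+ and 754-fold higher in CD11b- B cells, and both differences were called (5.29, adjusted p = 1.97e-06, and 5.73, adjusted p = 1.68e-06, by limma).

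Ebi3 (ENSMUSG00000003206, chr17:55952640-55957022, plus strand) was 24.0, 25.6 and 13.2 in CD11b+ B cells, 13.97, 7.03 and 11 in CD11b- B cells and 1.97, 4.84 and 7.21 in PMs. CD11b+ replicate 3 lay within the CD11b- libraries and the other CD11b+ libraries lay above them. The ratio of the B cell means was 1.96 (difference 0.91 ± 0.30, adjusted p = 0.557 by limma). Ebi3 was called higher than in PMs in CD11b+ B cells (2.02 ± 0.41, adjusted p = 0.00782 by limma) and by DESeq2 (adjusted p = 0.0152) but not by edgeR (adjusted p = 0.0576). In CD11b- B cells it was not called (1.11 ± 0.41, adjusted p = 0.0708 by limma) unless PM replicate 3 was left out (1.44, adjusted p = 0.0369) or only genes with a mean of 1 or more were tested (adjusted p = 0.044). That Ebi3 passed against PMs in 1 B cell group only does not show that the groups differ, since their own comparison was not called. Ebi3 shares 270 exonic bases with the antisense lncRNA Gm16712 (0.057 to 3.11 FPKM). No source used here says if reads were counted by strand.

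The other partners of these subunits were scarce in B cells. Il12b, the partner of Il12a in IL-12, had 18 reads in CD11b+ and 2 in CD11b- B cells and none in PMs. Il27, the partner of Ebi3 in IL-27, was 3.57 ± 1.09 in PMs and had 7 reads in CD11b+ and 1 in CD11b- B cells. It was called lower in both B cell groups than in PMs (-2.05, adjusted p = 0.00194, and -2.15, adjusted p = 0.000836, by limma). The genes whose distribution over the libraries was most like that of Ebi3 were Wdr62 (overlap 0.933), H2ax (0.930), which encodes a histone variant marked at DNA breaks, and the pseudogene Gm9761 (0.910).

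Promoter sequences from RefSeq (GRCm38.p6) were matched for 6 of the 10 genes. Those of Ebi3, Pdcd1lg2 and Cd274 are shown because Ebi3 and Pdcd1lg2 were among the genes with the higher unadjusted values in CD11b+ B cells, and Cd274 is the neighbour of Pdcd1lg2 and overlapped between the B cell groups. Each is the 250 bases before the start site on the plus strand, 5′ to 3′, and capitals mark matches to the NF-kB site by its usual consensus or to the PU.1 core GAGGAA, on either strand.
Ebi3, chr17:55952373-55952622: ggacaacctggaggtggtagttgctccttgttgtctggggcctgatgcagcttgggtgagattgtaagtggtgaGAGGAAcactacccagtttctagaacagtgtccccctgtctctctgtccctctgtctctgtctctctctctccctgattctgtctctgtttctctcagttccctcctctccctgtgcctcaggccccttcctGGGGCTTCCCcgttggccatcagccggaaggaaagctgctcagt
Pdcd1lg2, chr19:29410669-29410918: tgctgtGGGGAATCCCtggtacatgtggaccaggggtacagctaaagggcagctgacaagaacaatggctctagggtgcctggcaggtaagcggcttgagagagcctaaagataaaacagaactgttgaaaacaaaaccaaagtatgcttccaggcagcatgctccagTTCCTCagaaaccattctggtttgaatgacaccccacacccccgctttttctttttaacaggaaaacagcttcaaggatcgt
Cd274, chr19:29367188-29367437: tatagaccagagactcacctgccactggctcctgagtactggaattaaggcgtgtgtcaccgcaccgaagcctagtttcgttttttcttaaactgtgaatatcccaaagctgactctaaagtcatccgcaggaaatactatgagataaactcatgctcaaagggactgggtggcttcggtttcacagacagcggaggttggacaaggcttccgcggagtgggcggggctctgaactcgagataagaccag
Counted from the start site, the NF-kB matches lie at -44 to -35 in Ebi3 and at -244 to -235 in Pdcd1lg2, and the PU.1 core matches at -176 to -171 and at -82 to -77. The window of Cd274 holds neither motif. Of 32851 promoter windows of this length, 7.25% hold the NF-kB consensus and 23.3% hold GAGGAA. The 7 further motifs searched (GAS, ISRE core, C/EBP, AP-1, octamer, MARE core and CRE) had no match in these 3 windows. Among the other promoters, Tgfb1, which overlapped between the B cell groups, has an NF-kB match at -140 to -131, and none of the 3 windows of Havcr1 has one. In Havcr1, 1 window has a PU.1 core match at -49 to -44 and another a C/EBP match at -46 to -39.

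Tgfb1 (ENSMUSG00000002603, chr7:25687002-25705077, plus strand) encodes the latent cytokine TGF-β1. Its FPKM was 6.78, 7.18 and 9.17 in CD11b+ B cells, 6.34, 10.01 and 10.3 in CD11b- B cells and 3.93, 1.90 and 4.04 in PMs. The B cell groups overlapped (-0.16, 95% confidence interval -0.68 to 0.35), and both lay above all PM libraries. Against PMs the difference was 1.06 ± 0.30 for CD11b+ (adjusted p = 0.0306 by limma) and 1.22 ± 0.31 for CD11b- B cells (adjusted p = 0.0177 by limma). These calls were not firm. For CD11b+ B cells the call was lost without PM replicate 2 (adjusted p = 0.0680) and without CD11b+ replicate 1 (0.0780), 2 (0.0913) or 3 (0.0902), and for CD11b- B cells without CD11b- replicate 2 (0.0795) or 3 (0.0709). EdgeR called neither (adjusted p = 0.139 and 0.0664), and DESeq2 called the second only (adjusted p = 0.0971 and 0.038). Both calls were also lost with median-ratio scaling (adjusted p = 0.140 and 0.0825 by limma) and quantile normalization (0.151 and 0.0747), and the first without a filter on low values (0.0555).

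Of 18 other tested genes of the TGF-β pathway, 2 were higher and 10 lower than in PMs by limma for CD11b+ B cells, against 21.5% and 8.78% of all genes. For CD11b- B cells the counts were 3 higher and 10 lower, against 25.8% and 11%. Thbs1, whose product activates latent TGF-β, had an FPKM of 202 ± 12.8 in PMs, 0.207 ± 0.0436 in CD11b+ and 0.225 ± 0.0534 in CD11b- B cells. Ltbp1, which tethers latent TGF-β to the matrix, was 100.1 ± 10.7 in PMs and 0.110 ± 0.0182 and 0.145 ± 0.0787 in the B cell groups. Tgfb2, named after its values were seen, was 73.0 ± 14.7 in PMs and 0.099 ± 0.0555 in CD11b+ B cells, so that PMs carried mainly Tgfb2 and B cells mainly Tgfb1 among the ligand genes. In CD11b+ against CD11b- B cells, limma and edgeR called 0 of 17 tested genes of the pathway, and DESeq2 called Tgfbr2 lower.

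Cd274 and Pdcd1lg2, the ligands of PD-1, lie 22.8 kb apart on chromosome 19. Cd274 (ENSMUSG00000016496, chr19:29367455-29388095, plus strand) was 10.7, 10.8 and 8.36 in CD11b+ and 12.1, 11.6 and 7.14 in CD11b- B cells, against 3.20, 0.681 and 1.74 in PMs. The B cell groups overlapped, with a difference of -0.02 (95% confidence interval -0.54 to 0.49). Both were called above PMs, with 5.30 times the mean for CD11b+ (2.02 ± 0.36, adjusted p = 0.00435 by limma) and 5.50 times for CD11b- B cells (2.04 ± 0.38, adjusted p = 0.00500 by limma). Cd274 shares 511 exonic bases with the antisense lncRNA Gm36043 (0 to 1.41 FPKM).

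Pdcd1lg2 (ENSMUSG00000016498, chr19:29410919-29471161, plus strand) was lower than Cd274 in every B cell library. Its FPKM was 3.07, 2.67 and 4.17 in CD11b+ B cells and 1.18, 2.09 and 2.13 in CD11b- B cells. In PMs, replicates 1 and 2 had no read and replicate 3 had 0.404 from 16 reads. The CD11b+ libraries all lay above the CD11b- libraries, with a ratio of 1.84 (0.62 ± 0.27, adjusted p = 0.644 by limma). Both B cell groups were called above PMs (1.93 ± 0.31, adjusted p = 0.00244, and 1.30 ± 0.27, adjusted p = 0.00768, by limma), whereas edgeR called neither (adjusted p = 0.0704 and 0.148) and DESeq2 called the first only (adjusted p = 0.00914 and 0.0984). The ratio of Cd274 to Pdcd1lg2 within a library was 2.01 to 4.03 in CD11b+ and 3.35 to 10.3 in CD11b- B cells.

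The genes most like Cd274 over the 9 libraries were Hmgn1 (overlap 0.959), Psmd5 (0.957) and Fancg (0.954), and those most like Pdcd1lg2 were the lncRNA B130034C11Rik (0.943), Olfr99 (0.940) and the interferon-inducible gene Ifi213 (0.936).

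Among the other B7 and CD28 family genes, limma called 0 of 9 and edgeR 0 of 8 in CD11b+ against CD11b- B cells, and DESeq2 called Cd80 and Cd28 higher. Their median difference there was 0.24. Against PMs, 3 were higher and 2 lower in CD11b+ B cells, and 3 were higher and 3 lower in CD11b- B cells. Vsir, which encodes the inhibitory ligand VISTA, was 95.2 ± 8.75 in PMs and 4.14 ± 0.502 and 3.62 ± 3.51 in CD11b+ and CD11b- B cells. Icosl, the ligand of ICOS, ran the other way, with 2.28 ± 0.563 in PMs and 39.0 ± 5.46 and 38.7 ± 4.79 in the B cell groups.

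Havcr1 (ENSMUSG00000040405, chr11:46735080-46779578, plus strand) had nearly the same FPKM in the 3 CD11b+ libraries, 2.12, 2.25 and 2.04, from 144, 136 and 166 reads. In CD11b- B cells it was 1.40, 0.744 and 0, from 108, 60 and 0 reads. PMs had 4 reads in all (0.024, 0 and 0.0643 FPKM). CD11b+ libraries lay above all others, and the spread was on the CD11b- side. The B cell means differed 2.99-fold (0.96 ± 0.34, adjusted p = 0.586 by limma), with 2.15 and 3.29 for pseudocounts of 0.1 and 0.01 and 1.56 by edgeR, none of them called. Havcr1 was called above PMs in CD11b+ B cells (1.61 ± 0.24, adjusted p = 0.00166 by limma), and in CD11b- B cells (0.65 ± 0.30, adjusted p = 0.139 by limma) only when CD11b- replicate 3 was left out (0.99, adjusted p = 0.0158).

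The genes most like Havcr1 over the 9 libraries were the globin gene Hbb-bs (overlap 0.933), the DNA polymerase gene Polq (0.916) and the globin gene Hba-a1 (0.906). Hbb-bs had an FPKM of 18.2, 16.2 and 15.1 in CD11b+ and 8.62, 3.21 and 0.609 in CD11b- B cells. Globin genes have near-identical copies, so their values are uncertain, and the part of erythroid RNA in the Havcr1 profile was not tested. Of the other TIM genes, Timd4 averaged 375 ± 48.6 in PMs, and 0.679 ± 0.364 and 0.256 ± 0.121 in CD11b+ and CD11b- B cells. Timd2 was 2.37, 2.52 and 0.261 in CD11b+ B cells and was called above PMs there (1.25, adjusted p = 0.0489 by limma), and limma and DESeq2 called 0 of 3 TIM genes between the B cell groups, edgeR 0 of 2.

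Cd1d1 (ENSMUSG00000028076, chr3:86995834-86999441, minus strand) ranked second among the 10 genes in B cells. Its FPKM was 61.7, 52.7 and 53.2 in CD11b+ and 65.4, 52.7 and 71.1 in CD11b- B cells, and 11.8, 2.66 and 10.8 in PMs. The B cell groups overlapped (-0.16, 95% confidence interval -0.51 to 0.19), and both lay far above PMs, 6.62-fold for CD11b+ (2.79 ± 0.45, adjusted p = 0.00259 by limma) and 7.47-fold for CD11b- B cells (2.95 ± 0.46, adjusted p = 0.00213 by limma). Its paralog Cd1d2, 6.05 kb away, had a mean of 3.48 ± 1.38 in CD11b+ and 4.87 ± 2.40 in CD11b- B cells and 1 read in PMs. Of the distinct 150-base windows of Cd1d1 transcripts, 4.64% occur in Cd1d2 transcripts as well, and of the 50-base windows 19.1%. For Cd1d2 the shares that occur in Cd1d1 are 7.1% and 31.05%. A single read lying wholly in a shared stretch fits both genes, though its mate in the pair may tell them apart. The assignment of read pairs was not tested, so both values carry some uncertainty, that of Cd1d2 more so.

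Of 9 tested genes of lipid presentation, limma, edgeR and DESeq2 called 0 between the B cell groups, and by limma 1 was higher and 2 were lower than in PMs in each B cell group. Ctsl, a lysosomal protease, was 27.3 ± 3.51 in PMs and 0.832 ± 0.559 in CD11b+ and 0.456 ± 0.00901 in CD11b- B cells. Npc2, a lysosomal lipid carrier, was 119 ± 39.2 in PMs and 20.4 ± 0.943 in CD11b+ B cells.

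**Figure D3:**
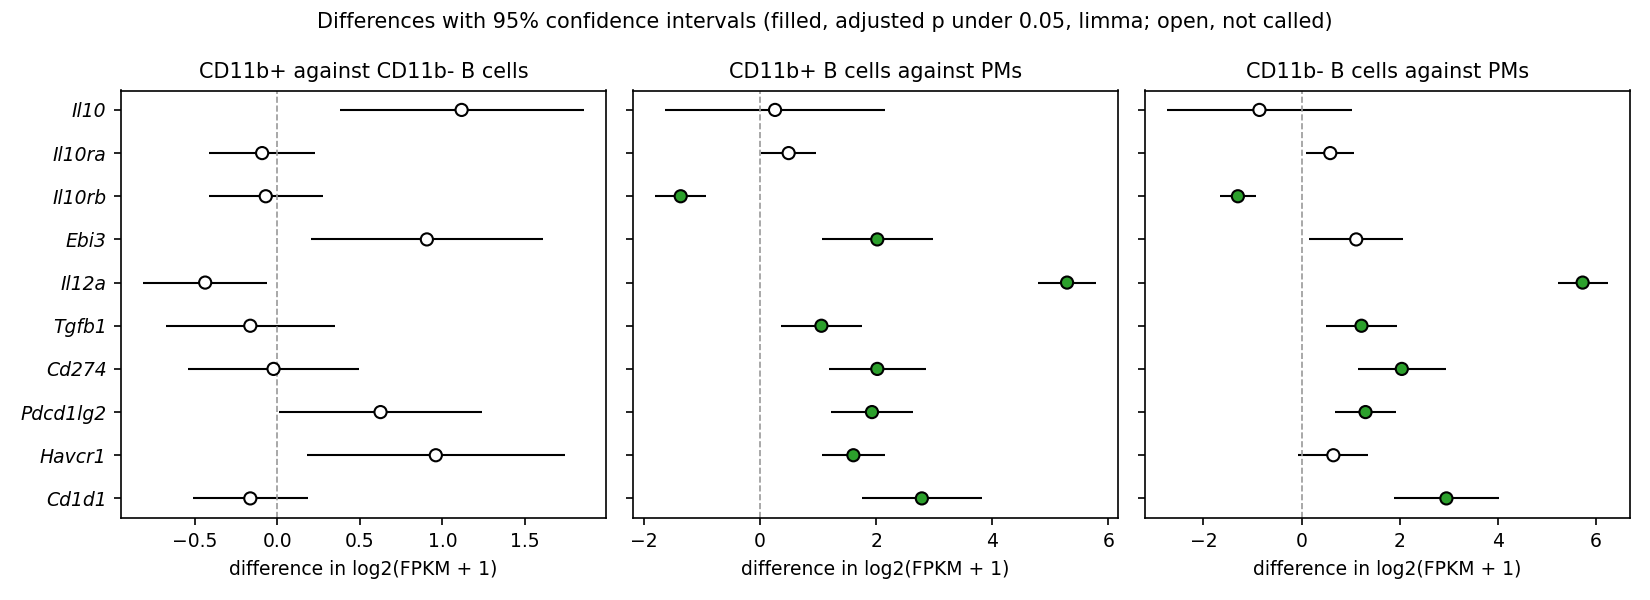
Difference in log2(FPKM + 1) of the 10 genes with 95% confidence intervals, for CD11b+ against CD11b- B cells (left), CD11b+ B cells against PMs (middle) and CD11b- B cells against PMs (right), filled where the adjusted p by limma was under 0.05. No point is filled on the left, 8 are filled in the middle and 6 on the right.

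Against PMs, then, 7 of the 10 genes were called higher in CD11b+ B cells (Ebi3, Il12a, Tgfb1, Cd274, Pdcd1lg2, Havcr1 and Cd1d1), where 21.5% of all genes tested were called higher, and 1 was called lower (Il10rb), against 8.78%. In CD11b- B cells 5 were called higher (Il12a, Tgfb1, Cd274, Pdcd1lg2 and Cd1d1), against 25.8% of all genes tested, and 1 lower (Il10rb), against 11%. The groups did not overlap for 8 genes in the higher and 1 in the lower direction for CD11b+ B cells, against 34.3% and 12.4% of all genes, and for 6 and 1 for CD11b- B cells, against 36.1% and 15.2%. On the underlying reads edgeR called 4 higher and 1 lower for CD11b+ B cells, against 18.7% and 18.1% of its genes, and 3 and 1 of 8 for CD11b- B cells, against 21.1% and 20.9%. DESeq2 called 6 and 1, against 19.6% and 18.8%, and 4 and 1, against 20.7% and 22.4%. Both comparisons use the same 3 PM libraries and are given side by side for that reason. The median difference of the 10 genes was 1.77 for CD11b+ and 1.17 for CD11b- B cells, beside 0.25 and 0.24 over all genes tested. These overall medians depend on scaling. Median-ratio scaling lowered them to 0.12 and 0.08, and the calls over all genes moved from 4760 higher and 1940 lower to 2915 and 2556 for CD11b+, and from 5404 and 2306 to 3397 and 3083 for CD11b- B cells.

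**Figure D4:**
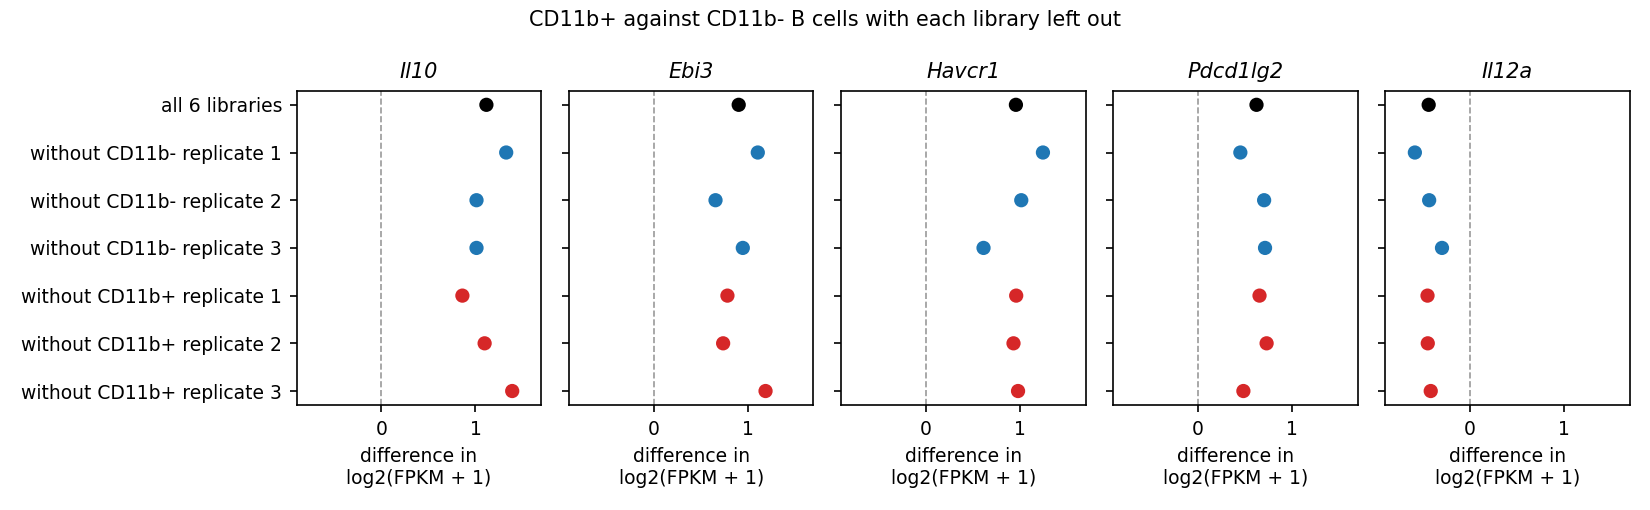
Difference in log2(FPKM + 1) between CD11b+ and CD11b- B cells for the 5 genes with an unadjusted p under 0.05 by limma, with all 6 libraries (black) and with 1 CD11b- (blue) or 1 CD11b+ (red) library left out. The difference of Il10 stays between 0.86 and 1.39 and that of Il12a between -0.58 and -0.30, and none is called in any of these fits.

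Leaving out single libraries kept the direction of these 5 genes. The difference ran from 0.66 to 1.19 for Ebi3 (0.49 with a block by the numbers in the sample descriptions), from 0.62 to 1.25 for Havcr1 and from 0.45 to 0.73 for Pdcd1lg2. Its lowest value for Havcr1 came without CD11b- replicate 3, the library with no Havcr1 read, and its lowest for Il10 without CD11b+ replicate 1, the library with the most Il10 reads. An exact two-sided permutation test of the FPKM means gave p = 0.1 for Il10, Il12a, Pdcd1lg2 and Havcr1, the smallest value that 3 against 3 libraries allow.

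Of 14 IL-10 receptor signalling genes, limma and edgeR called 0 between the B cell groups and DESeq2 called Hmox1 higher in CD11b+ B cells. Against PMs, 7 were higher and 4 lower by limma for CD11b+ B cells, against 21.5% and 8.78% of all genes, and 6 and 4 for CD11b- B cells, against 25.8% and 11%. EdgeR called 4 higher and 5 lower, and 5 higher and 5 lower. The other list counts against PMs given here are by limma and stand beside the same shares of all genes. Dusp1, a phosphatase gene that dampens MAP kinases, was 82.1 ± 14.8 in PMs, 6.02 ± 0.723 in CD11b+ and 5.03 ± 1.001 in CD11b- B cells. Hmox1, the haem oxygenase gene induced by IL-10, was 69.2 ± 19.6 in PMs.

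Of 14 genes known to regulate Il10, limma and edgeR called 0 between the B cell groups and DESeq2 called Batf higher in CD11b+ B cells. Ets1 was 1.29 ± 0.745 in PMs, 96.3 ± 24.99 in CD11b+ and 131 ± 7.43 in CD11b- B cells. Maf and Nfil3, both activators of Il10 in other leukocytes, were lower in B cells, Maf with 11.7 ± 4.59 in PMs against 0.462 ± 0.195 and 0.237 ± 0.165, and Nfil3 with 14.7 ± 8.25 against 1.40 ± 0.425 and 0.282 ± 0.245. In all, 7 regulators were higher and 3 lower in CD11b+ B cells than in PMs, and 6 were higher and 4 lower in CD11b- B cells.

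Relatives of IL-10 were scarce. Only 4 of 11 genes of the family and its receptors passed the filter. Limma called 0 of these 4 between the B cell groups and edgeR 0 of 3, and DESeq2 called Ifnlr1 higher in CD11b+ B cells. Il24, named after its values were seen, averaged 0.858 ± 0.507 in CD11b+ and 0.857 ± 0.315 in CD11b- B cells, had no read in PMs and was called higher in both comparisons (adjusted p = 0.0240 and 0.00869 by limma). Of the IL-12 family and its receptors, limma called 0 of 8 between the B cell groups, edgeR 0 of 5 and DESeq2 0 of 7. Against PMs, 2 of 9 were higher and 3 lower in CD11b+ B cells, and 1 was higher and 4 lower in CD11b- B cells. Il6ra, the chain that binds IL-6, was 22.4 ± 8.50 in PMs and 1.47 ± 0.181 and 0.815 ± 0.382 in the B cell groups.

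Of 15 tested other inhibitory ligands and receptors, limma called 0 between the B cell groups and edgeR 0 of 12, whereas DESeq2 called Nectin2, Tigit, Sirpa and Nt5e higher in CD11b+ B cells. By level, 6 of them were higher and 1 was lower without overlap in CD11b+ B cells, against 8.63% and 6.32% of all genes. Btla, the receptor of HVEM, was 155 ± 37.0 and 137 ± 27.7 in CD11b+ and CD11b- B cells and 1.13 ± 0.684 in PMs. Cd200 was 29.7 ± 1.30 in CD11b+ B cells and 0.121 ± 0.127 in PMs, and Sirpa, whose product binds CD47, was 54.5 ± 3.80 in PMs and 0.924 ± 0.684 in CD11b- B cells. Against PMs, 4 of 16 were higher and 5 lower in CD11b+ B cells, and 4 of 13 higher and 6 lower in CD11b- B cells.

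Of 11 tested surface and effector genes used to define regulatory B cells, limma, edgeR and DESeq2 called 0 between the B cell groups. Against PMs, limma called 9 higher and 2 lower in each B cell group, where 21.5% of all genes were called higher and 8.78% lower for CD11b+ B cells, and 25.8% and 11% for CD11b- B cells. Fcer2a, which encodes CD23, was 185 ± 16.2 in CD11b+ and 230 ± 25.7 in CD11b- B cells against 0.834 ± 0.448 in PMs.

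**Figure D5:**
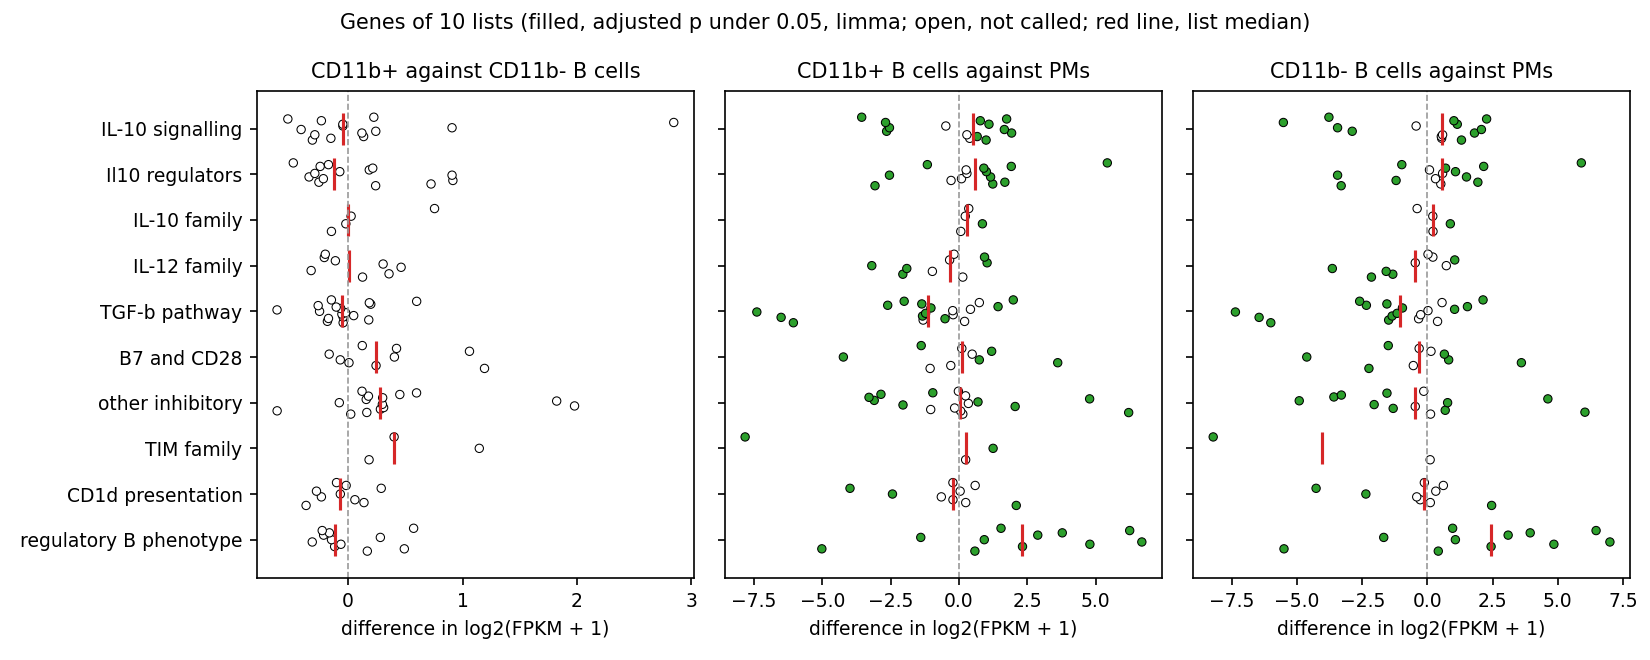
Difference in log2(FPKM + 1) for the tested genes of 10 related lists (rows) in CD11b+ against CD11b- B cells (left), CD11b+ B cells against PMs (middle) and CD11b- B cells against PMs (right), with filled points where the adjusted p by limma was under 0.05 and a red line at each list's median. No gene is filled on the left, where 102 different genes were tested, and 37 are higher and 31 lower in the middle, 34 higher and 35 lower on the right.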

How the data were processed

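RNA of 9 libraries was compared, 3 in each of 3 groups taken from the sample labels. The authors trimmed read pairs (per the submitters' processing notes with Trim Galore 0.4.4, Trimmomatic 0.36 and cutadapt 1.16), mapped them to GRCm38 with STAR 2.7.2b and counted reads per gene with featureCounts 1.6.1. The notes also name GRCm39, and gene starts in the table differ from GENCODE M21, so gene positions were read from GENCODE M21 (GRCm38) by Ensembl identifier. The FPKM values were deposited by the authors with the exon length of each gene. A second deposited table holds a normalized signal, counts divided by a size factor, for 11063 genes selected by a p-value, made by the authors with DESeq2 1.20.0. It served here only as a check.

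FPKM times exon length, scaled in each library by its reads on genes, gave whole reads for 100% of values above 0, within 0.05 of a read, and these equalled the reads of the second table for all 11063 genes in every library. The kit adds no molecular identifiers, so reads are not molecules.

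Differences were tested with limma 3.58.1 (R 4.3.3, two-sided, moderated variances with a mean trend). The scale was log2(FPKM + 1), which understates changes of low genes, and genes entered when their mean over the 6 libraries compared reached 0.05 FPKM. P-values were adjusted over all genes by the Benjamini-Hochberg method (threshold 0.05). Ratios are of mean FPKM. Alternatives were pseudocounts of 0.1 and 0.01, other filters, 1 fit over 9 libraries, replicate blocks, median-ratio and quantile scaling, edgeR 4.0.16, DESeq2 1.42.0 and leaving out each library. EdgeR on all genes and the emphasis on PM replicate 1 were added once the data had been seen. Code was tested on simulated data.

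The 10 genes and all lists were chosen with earlier results of these data known. Named in the text were these 10, Cd1d2, the called list genes with the 2 largest differences in each comparison with PMs (mean FPKM of 1 or more in whichever group was higher), and the 3 genes most like 5 of the members. Il12b, Tgfb2, Il24, Itgam, Jchain, the values of Hbb-bs and single markers were added after their values were seen. 1 gene that the naming rule selects is not reported here.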

Additional observations from a re-analysis of the deposited data

How the results depend on the processing

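Of 494 values of single genes under the alternatives, 456 kept their direction and their side of the threshold, 18 lost a call, 6 gained one and 14 changed sign. In CD11b+ against CD11b- B cells 0 of the 10 genes were called under every alternative run. With the filter at a mean FPKM of 1, Il10 was not tested there. Under that filter Pdcd1lg2 and Havcr1 were not tested in CD11b- B cells against PMs. Against PMs the number called higher was 7 for CD11b+ and 5 for CD11b- B cells, 4 and 3 with edgeR, and 6 to 8 and 4 to 6 when single libraries were left out; Il10rb alone was called lower throughout. All sign changes were in values near 0 or in Il10. Between the B cell groups, Il10ra ran from -0.18 to 0.017 (without CD11b- replicate 3) and Cd274 from -0.24 to 0.10 when single libraries were left out (0.10 and 0.07 without CD11b- replicate 1 or 2, 0.09 without CD11b+ replicate 3), and with a block by description number Il10rb was 0.014 and Cd274 0.017. In CD11b+ B cells against PMs, Il10 was -1.07 with edgeR, -1.08 with DESeq2 and -0.26 and -0.28 without PM replicate 2 or 3 but 1.31 without replicate 1, and Il10ra was -0.0023 with median-ratio scaling, -0.012 with edgeR and -0.016 with DESeq2. In CD11b- B cells against PMs, Il10 ran from -1.39 to 0.19 (without PM replicate 1) when single libraries were left out, and was -1.90 with a pseudocount of 0.01 and -4.27 with DESeq2. The cause was not tested. EdgeR gave no value for Il10 and Havcr1 in the last comparison. Il10, Havcr1 and Pdcd1lg2 rest on few reads.

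The replicate numbers were not treated as pairs. Deviations of same-numbered CD11b+ and CD11b- libraries correlated at 0.28, -0.02 and 0.21. The pairs at 0.28 and 0.21 also share the number in their sample descriptions and were closest to their own number, whereas the pair at -0.02 does not share it, so these values do not speak against pairing by description, for which only 2 pairs exist. With a replicate block by number, 0, 7 and 5 genes were called higher and 0, 1 and 1 lower in the 3 comparisons, as without it, and over all genes 16 in place of 15 were called between the B cell groups. With a block by the numbers in the sample descriptions, limma called no gene there.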

Other observations

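Among the 120 genes of the related lists, DESeq2 called 9 with higher and 1 with lower levels when CD11b+ were compared with CD11b- B cells (8.91% and 0.99% of 101 tested, beside 1.89% and 0.369% of all genes DESeq2 tested), where limma called 0 of 102 and edgeR 0 of 93. These genes were picked after their values were seen. Hmox1, which encodes haem oxygenase, had an FPKM of 14.02, 12.1 and 5.09 in CD11b+ and 0.120, 0.851 and 0.552 in CD11b- B cells, against a mean of 69.2 in PMs. Its difference was 2.85 in log2(FPKM + 1), with an adjusted p of 0.0726 by limma, 0.0511 by edgeR and 1.16e-10 by DESeq2. Tigit, an inhibitory receptor gene of T and NK cells, was 2.96, 2.04 and 4.97 against 0.0652, 0 and 0.102, with no read in PMs (adjusted p of 0.0841 by limma, 0.0664 by edgeR and 2.27e-07 by DESeq2). T cell markers were also higher in CD11b+ libraries, and their part in the Tigit value was not tested.

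Sirpa (5.74 ± 2.18 against 0.924 ± 0.684) and the CD73 gene Nt5e (0.393 ± 0.171 against 0.0131 ± 0.0113) were higher in CD11b+ B cells by DESeq2 (adjusted p = 0.00188 and 3.73e-07), and both were higher still in PMs, at 54.5 and 9.22. Cd80, a ligand of CD28 and CTLA-4, was 4.93, 3.13 and 0.682 against 0.599, 0.364 and 0.581 (adjusted p = 0.00469 by DESeq2), and the third CD11b+ library was close to the CD11b- libraries. The summed monocyte and macrophage markers were 345, 319 and 160 in the same CD11b+ libraries and 57.1 to 66.9 in CD11b- B cells. Lyz2 alone held 261, 240 and 65.4 of these CD11b+ sums. The part of monocytes and macrophages in the values of Hmox1, Sirpa, Nt5e and Cd80 was not tested. Batf was 22.6 ± 5.41 against 11.3 ± 0.659 and Ifnlr1 1.14 ± 0.518 against 0.245 ± 0.0978 (adjusted p = 0.0116 and 0.0103 by DESeq2). Cd28 and Nectin2 stood below a mean FPKM of 1 in both B cell groups. Tgfbr2, a TGF-β receptor gene, was the gene called lower, 22.8 ± 2.36 against 35.6 ± 2.98 (adjusted p = 0.0123 by DESeq2).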
